A study of Mesocricetus auratus with 64 samples.

Results

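Embryos of the golden hamster (Mesocricetus auratus, breed Syrian) at the stages labelled 10PEA and 1C-20PEA were compared between animals labelled Pld6-deficient (KO) and wild type (WT). The comparison used 8 of the 64 samples of the series, chosen by their labels. They were the long RNA libraries of KO-10PEA, KO-1C-20PEA, WT-10PEA and WT-1C-20PEA, with 2 libraries in each group. The series' design text speaks of deficient females, so KO is taken here as the label of the female from which an embryo came. The genotype of the sire, the altered part of Pld6, the age of the females and the animal behind each library are not given for these embryos. Nothing says that libraries of a group came from separate females, so p-values describe the spread among these particular libraries, some of it possibly technical. The labels do not spell out PEA, and only the later stage carries the mark 1C. Both stages were read here as the rule for this comparison has them, as one-cell embryos.

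Each library was made from a single embryo by a method modified from Smart-seq2, in which full-length cDNA is copied from polyadenylated RNA and amplified by PCR. The same volume of ERCC RNA, a set of synthetic transcripts, was added to each embryo. Values are read counts per gene, and levels are given as CPM, the counts scaled to a common library total, after TMM scaling of the 8 libraries. Levels of different genes are not compared, since the counts are not divided by transcript length. In a single embryo fewer molecules of a transcript and poorer capture of it cannot be told apart.

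Pld6 encodes a protein of the outer mitochondrial membrane that takes part in making piRNAs, with which PIWI proteins find transposon and messenger RNAs. In golden hamsters, unlike in mice, piRNA genes are known to be needed in the oocyte, and eggs carry the PIWI proteins encoded by Piwil1 and Piwil3. A fertilised egg inherits nearly all of its messenger RNA from the oocyte. Much of that maternal store is broken down while the embryo starts its own transcription, so levels at the one-cell stage largely reflect what the oocyte made and what has since been removed.

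Gene counts were between 7839878 and 9282215 per library, and between 10019 and 15266 genes had a count. ERCC counts made up 0.867% to 11.5% of the counts, and gene counts per ERCC count ran from 7.72 to 114.4. KO-10PEA replicate 2 stood apart, with the fewest genes counted, the lowest ratio and a median Spearman correlation of 0.803 with the other 7 libraries, against 0.834 to 0.892 for those. Replicate 2 had the lower ratio and fewer genes counted in all 4 groups, and KO-1C-20PEA replicate 2 and WT-1C-20PEA replicate 2 had the next lowest correlations, 0.834 and 0.838. All 8 libraries lay closer to WT MII oocytes (Spearman correlation 0.797 to 0.911 with their mean) than to WT-33PEA embryos (0.596 to 0.662). Gene counts per ERCC count differed by log2 0.22 between KO and WT (two-sided exact permutation test, stages kept apart, p = 0.889), as the mean of opposite differences of −0.46 at 10PEA and 0.89 at 1C-20PEA. The number of genes counted differed by −902 (exact permutation p = 0.556). With its 36 arrangements this exact permutation test cannot go below p = 0.0556.

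The targeted gene was low in both genotypes. Pld6 had 5.49 and 0 CPM in KO-10PEA and 11.6 and 13.3 CPM in KO-1C-20PEA, against 9.94 and 15.8 CPM in WT-10PEA and 24.2 and 17.6 CPM in WT-1C-20PEA. At each stage the KO libraries lay below the WT libraries, while over both stages they overlapped (log2 −1.47, SE 1.11, edgeR adjusted p = 1). The counts do not check the KO label, because the altered stretch of the gene is not described. The PIWI genes and the germ cell helicase Ddx4 did not pass either. Piwil1 averaged 98.3 ± 38.6 CPM in KO embryos and 76.7 ± 20.5 CPM in WT embryos (SD, n = 4 each), Piwil3 20.6 ± 17.8 CPM in KO embryos and 16.6 ± 14.4 CPM in WT embryos, Piwil2 1.77 ± 2.49 CPM in KO embryos and 4.3 ± 3.28 CPM in WT embryos and Ddx4 729.6 ± 123 CPM in KO embryos and 762 ± 314 CPM in WT embryos, each with an edgeR adjusted p = 1. The order of the genotypes in Piwil1 and Piwil3 differed between the stages in counts before scaling. Piwil1 had 602 and 644 counts in KO-10PEA against 789 and 878 in WT-10PEA. At 1C-20PEA it had 763 and 982 counts in KO against 733 and 496 in WT. Piwil3 had 126 and 0 counts in KO-10PEA against 161 and 303 in WT-10PEA. At 1C-20PEA it had 240 and 264 counts in KO against 150 and 0 in WT. Piwil2 had no count in either KO replicate 2.

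With stage as a block, 5 of 13209 genes tested (0.0379%) passed an adjusted p of 0.05 by the quasi-likelihood test of edgeR, adjusted by Benjamini-Hochberg, all 5 higher in KO and 0 lower. They were Tmem39a, Gtf2b, Nacc1, Kif2a and LOC121139251, the last a protein-coding gene without a symbol that was named after its values were seen. In each of them all 4 KO libraries lay above all 4 WT libraries. Over all genes tested, 384 had 4 KO libraries above 4 WT libraries (2.91%) and 355 the reverse (2.69%). At an unadjusted p under 0.05 there were 555 genes (4.2%), 379 higher (2.87%) and 176 lower (1.33%). The libraries of KO and WT were apart in the same direction at both stages in 538 genes higher in KO (4.07%) and 509 lower (3.85%). The median log2 change over all genes tested was −0.07.

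Tmem39a, which encodes a membrane protein of the endoplasmic reticulum, was nearly absent from WT embryos. Its level was 73.3 and 44.9 CPM in KO-10PEA and 60.7 and 193 CPM in KO-1C-20PEA, against 0 and 0 CPM in WT-10PEA and 0.4 and 0 CPM in WT-1C-20PEA. The 4 KO libraries held 2774 counts and the 4 WT libraries 4, all of them in WT-1C-20PEA replicate 1, a ratio of 830-fold per scaled count with a 95% exact counting interval from 324 to 3048 (log2 9.84, SE 1.11, edgeR adjusted p = 0.0167). That interval covers counting error only, and amplified reads are not independent molecules. KO-1C-20PEA replicate 2 was the highest library and KO-10PEA replicate 2 the lowest of the KO libraries.

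Gtf2b encodes TFIIB, the general factor that brings RNA polymerase II to promoters. It had 166 and 208 CPM in KO-10PEA and 221 and 149 CPM in KO-1C-20PEA, against 1.71 and 0 CPM in WT-10PEA and 0 and 0.211 CPM in WT-1C-20PEA. The 4 KO libraries lay close together, while WT held 19 counts in all, 17 of them in WT-10PEA replicate 1 (375-fold, counting interval 240 to 624; log2 8.85, SE 1.20, edgeR adjusted p = 0.0383). Nacc1, a BTB-domain regulator of transcription, had 50.2 and 42.7 CPM in KO-10PEA and 57.1 and 125 CPM in KO-1C-20PEA, against 1.91 and 0.931 CPM in WT-10PEA and 1.4 and 0.421 CPM in WT-1C-20PEA. Every WT library stood below 2 CPM and every KO library above 42 CPM (log2 5.80, SE 0.77, edgeR adjusted p = 0.0383).

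Kif2a encodes a kinesin of the family that takes microtubules apart rather than walking along them. It had 1094 and 744 CPM in KO-10PEA and 1421 and 265 CPM in KO-1C-20PEA, against 43.6 and 45.7 CPM in WT-10PEA and 31.2 and 18.7 CPM in WT-1C-20PEA. KO-1C-20PEA replicate 2 was the lowest KO library and still lay above the highest WT library (log2 4.72, SE 0.60, edgeR adjusted p = 0.0379). LOC121139251 had 2788 and 4766 CPM in KO-10PEA and 2527 and 3150.4 CPM in KO-1C-20PEA, against 194 and 289 CPM in WT-10PEA and 88.3 and 142 CPM in WT-1C-20PEA, with no overlap at either stage (log2 4.29, SE 0.44, edgeR adjusted p = 0.0144). Per stage the log2 change of LOC121139251 was 3.97 at 10PEA and 4.62 at 1C-20PEA, that of Kif2a 4.36 at 10PEA and 5.08 at 1C-20PEA and that of Nacc1 5.01 at 10PEA and 6.62 at 1C-20PEA.

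These calls rest on few libraries. Leaving out any 1 of the 8 libraries left 0 to 3 of the 5 genes past the threshold, with 0 without WT-10PEA replicate 2 or WT-1C-20PEA replicate 1, 1 without KO-10PEA replicate 1 or WT-10PEA replicate 1, 2 without KO-10PEA replicate 2, KO-1C-20PEA replicate 2 or WT-1C-20PEA replicate 2, and 3 without KO-1C-20PEA replicate 1. Scaling to ERCC counts left 0 (smallest adjusted p = 0.0553), and so did a fit with the replicate number as a block. DESeq2 called 77 genes and the fit without a filter 43, both with all 5 among them. In all 17 alternatives the 5 genes stayed higher in KO, with log2 changes between 4.12 and 4.68 for LOC121139251, 4.0 and 5.47 for Kif2a, 5.36 and 6.24 for Nacc1, 8.37 and 11.18 for Gtf2b, and 9.33 and 12.45 for Tmem39a.

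**Figure D1:**
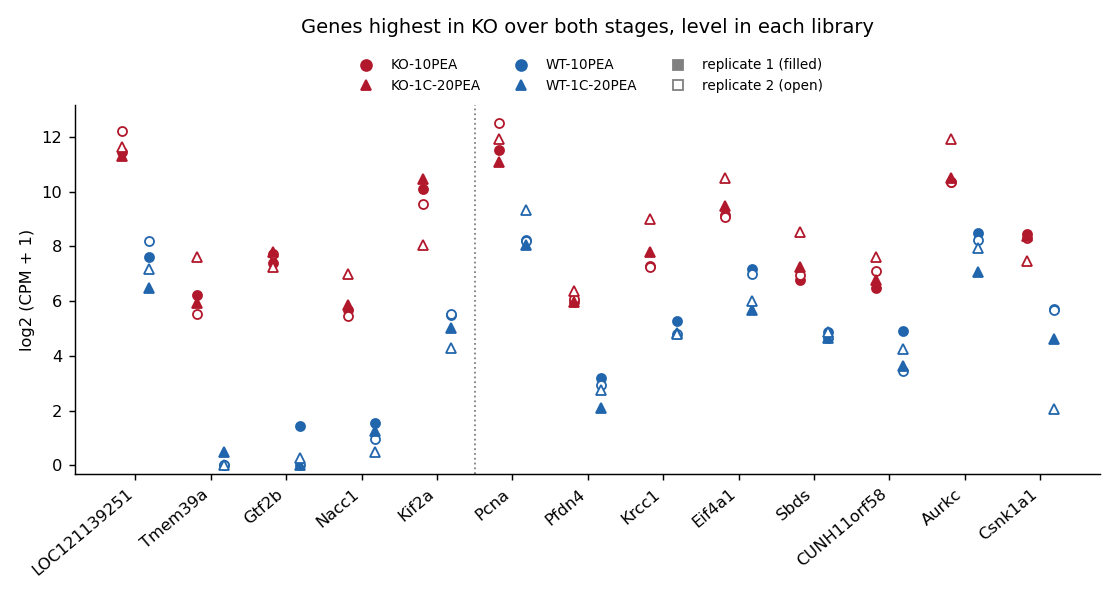
Level of 13 genes in each of the 8 libraries, as log2 of CPM + 1, with KO in red and WT in blue, circles for 10PEA, triangles for 1C-20PEA, filled marks for replicate 1 and open marks for replicate 2. The 5 genes left of the dotted line passed the threshold; Tmem39a and Gtf2b lie near 0 in WT, and in all 13 genes every KO library lies above every WT library.

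A further 8 genes completed the set of 12 genes with symbols that the naming rule took in the upward direction, and none of the 8 passed. The rule required libraries that do not overlap at either stage, so that separation is no finding. Pcna, the sliding clamp of DNA replication, came nearest. It had 2936 and 5877 CPM in KO-10PEA and 2153 and 3860.2 CPM in KO-1C-20PEA, against 301 and 289 CPM in WT-10PEA and 263 and 637 CPM in WT-1C-20PEA (log2 3.32, SE 0.51, edgeR adjusted p = 0.0954). Aurkc, the aurora kinase of meiosis and early cleavage, had 1302 and 1288 CPM in KO-10PEA and 1446 and 3914 CPM in KO-1C-20PEA, against 354 and 303 CPM in WT-10PEA and 132 and 245 CPM in WT-1C-20PEA (log2 2.91, SE 0.56, edgeR adjusted p = 0.272). Eif4a1, the RNA helicase that opens messenger RNA for translation, had 561 and 542 CPM in KO-10PEA and 712 and 1430.4 CPM in KO-1C-20PEA, against 143 and 127 CPM in WT-10PEA and 50 and 62.9 CPM in WT-1C-20PEA (log2 3.14, SE 0.57, edgeR adjusted p = 0.271).

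Csnk1a1, which encodes casein kinase 1 alpha, had 349.9 and 319 CPM in KO-10PEA and 334 and 176 CPM in KO-1C-20PEA, against 51.2 and 49.8 CPM in WT-10PEA and 23.7 and 3.16 CPM in WT-1C-20PEA (log2 3.48, SE 0.68, edgeR adjusted p = 0.29). WT-1C-20PEA replicate 2 was lower than the other WT libraries in this gene. Pfdn4, a subunit of the prefoldin chaperone, averaged 67.8 ± 9.64 CPM in KO embryos and 5.99 ± 2.06 CPM in WT embryos (SD, n = 4 each; adjusted p = 0.105). Sbds, needed to mature the large ribosomal subunit, averaged 188 ± 123 CPM in KO embryos and 26.1 ± 2.34 CPM in WT embryos (adjusted p = 0.272). Krcc1 averaged 258 ± 170.5 CPM in KO embryos and 29.8 ± 5.58 CPM in WT embryos (adjusted p = 0.222) and CUNH11orf58 132 ± 45.5 CPM in KO embryos and 17.1 ± 8.62 CPM in WT embryos (adjusted p = 0.272). How reads that match several places were counted is not given in the sources used here, so genes with close copies elsewhere in the genome, as Eif4a1 has in other mammals, are uncertain. Whether LOC121139251 shares reads with another gene was not tested.

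In the downward direction 0 genes passed, and the 12 named genes had adjusted p-values of 0.691 to 1. Zfp14, a zinc finger gene, had no count in any KO library, against 18.8 and 0.465 CPM in WT-10PEA and 5.9 and 17.3 CPM in WT-1C-20PEA. Against a floor of 3 counts over the KO group this is at least 115-fold lower (edgeR adjusted p = 0.691), and WT-10PEA replicate 2 was itself nearly at 0. Saraf, a brake on calcium entry at the endoplasmic reticulum, had 47.3 and 17.4 CPM in KO-10PEA and 32.3 and 6.59 CPM in KO-1C-20PEA, against 90.5 and 90.4 CPM in WT-10PEA and 165 and 154 CPM in WT-1C-20PEA (log2 −2.26, SE 0.65, edgeR adjusted p = 1). Oma1, a protease of the inner mitochondrial membrane, had 47.3 and 31.3 CPM in KO-10PEA and 32.2 and 29.2 CPM in KO-1C-20PEA, against 79.8 and 60.8 CPM in WT-10PEA and 159 and 233 CPM in WT-1C-20PEA (log2 −1.76, SE 0.53, edgeR adjusted p = 1).

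The other 9 genes named in this direction did not pass either. Lamp2, a protein of the lysosomal membrane, averaged 18.3 ± 8.8 CPM in KO embryos and 71.5 ± 40.5 CPM in WT embryos, and Plekhm1, an adaptor for fusion with lysosomes, 13.5 ± 8.69 CPM in KO embryos and 41.1 ± 8.36 CPM in WT embryos. Pitrm1, a peptidase of the mitochondrial matrix, averaged 23.2 ± 9.79 CPM in KO embryos and 76.1 ± 29.6 CPM in WT embryos, and Elovl5, which lengthens polyunsaturated fatty acids, 209 ± 104 CPM in KO embryos and 582 ± 83.4 CPM in WT embryos. The rest were Ufsp2 (log2 −2.45), which cleaves the ubiquitin-like UFM1, Nckap1l (log2 −1.22), of the actin-regulating WAVE complex, Kyat3 (log2 −1.75), an aminotransferase, Chuk (log2 −1.76), a kinase of NF-kappaB signalling, and the retinoic acid receptor gene Rarb (log2 −1.47), each with an adjusted p = 1.

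**Figure D2:**
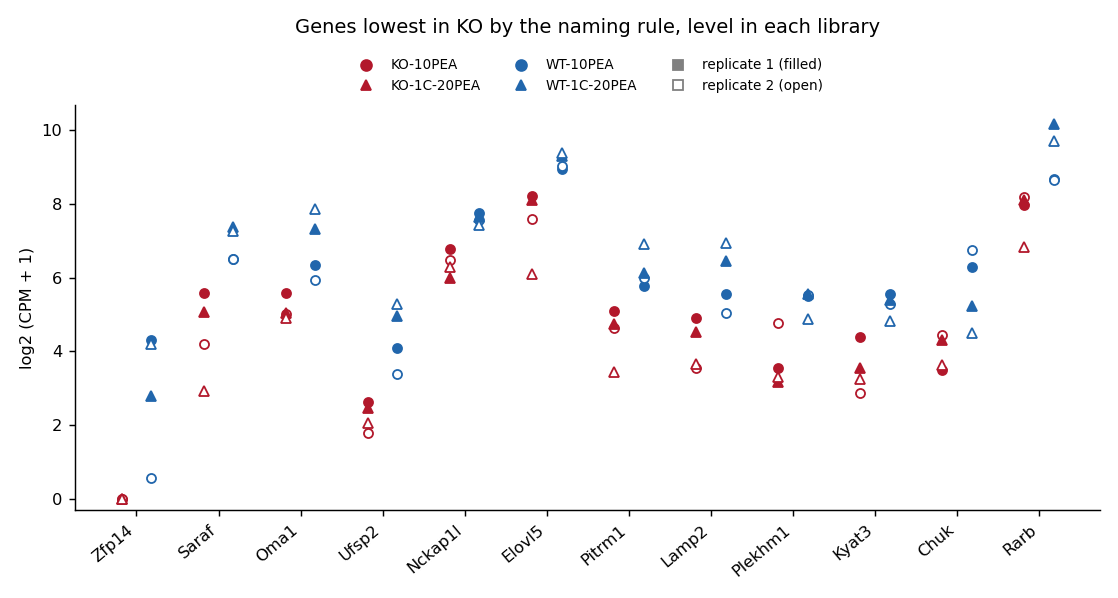
Level of the 12 genes named in the downward direction in each library, as log2 of CPM + 1, with KO in red and WT in blue and marks as for the upward genes. The KO libraries lie below the WT libraries at each stage, as the naming rule required, and none of the genes passed the threshold.

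Gene lists put these single genes in the setting of what an egg and a one-cell embryo use. The 25 lists had 618 different genes that were tested, and 1 of them, Gtf2b, passed. At an unadjusted p under 0.05, 32 of the 618 were higher (5.18%) and 7 lower (1.13%), against 2.87% and 1.33% of all genes tested. Only one list, RNA polymerase II and its factors, held a gene that passed, and 8 lists held no gene with an unadjusted p under 0.05. Scaling to ERCC counts moved the median change of all genes from −0.07 to 0.41, so medians below are relative to TMM scaling.

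Of 28 genes of RNA polymerase II and its factors, 1 passed, higher, and the median log2 change was 0.24. Polr2c and Polr2g, subunits of the polymerase, did not pass (adjusted p = 1 each). Polr2c averaged 277 ± 138 CPM in KO embryos and 117 ± 71.1 CPM in WT embryos, and Polr2g averaged 44.3 ± 5.38 CPM in KO embryos and 21.9 ± 11.2 CPM in WT embryos. By stage, Polr2c averaged 184 CPM in KO-10PEA and 175 CPM in WT-10PEA, and 370 CPM in KO-1C-20PEA and 58.5 CPM in WT-1C-20PEA. The other 27 genes had log2 changes between −0.92 and 2.13, against 8.85 for Gtf2b.

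Among genes of cell division none passed. Of 32 genes of M phase and the exit from meiosis, 0 passed, with 4 higher and 2 lower at an unadjusted p and a median of 0.19. Beside Aurkc, Aurkb of the chromosomal passenger complex averaged 83.8 ± 57.7 CPM in KO embryos and 25.1 ± 5.81 CPM in WT embryos, and Ccnb1, the cyclin that drives entry into M phase, 6246 ± 1705 CPM in KO embryos and 2988 ± 319 CPM in WT embryos (adjusted p = 1 each). Ccnb1 had 4603 and 7068 CPM in KO-10PEA and 5074 and 8239.7 CPM in KO-1C-20PEA, against 3041 and 2839 CPM in WT-10PEA and 3408 and 2665 CPM in WT-1C-20PEA. In both Aurkb and Ccnb1 all 4 KO libraries lay above all 4 WT libraries. Of 27 kinetochore and spindle genes 0 passed and 3 were higher at an unadjusted p, namely Tpx2 (509.6 ± 178 CPM in KO embryos and 240.1 ± 154 CPM in WT embryos), Ndc80 (765 ± 198 CPM in KO embryos and 357 ± 177 CPM in WT embryos) and Cenpn (1092 ± 289.7 CPM in KO embryos and 624 ± 72.4 CPM in WT embryos).

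Of 45 DNA replication genes 0 passed and 5 were higher at an unadjusted p, with a median of 0.09. After Pcna, Pole2, a subunit of DNA polymerase epsilon, averaged 91.6 ± 35.9 CPM in KO embryos and 27 ± 18.6 CPM in WT embryos, and Orc6, of the origin recognition complex, 231 ± 176 CPM in KO embryos and 69.4 ± 19.9 CPM in WT embryos. The summed level of the list, before TMM, was 7534 and 9345 CPM in KO-10PEA and 7063 and 8121 CPM in KO-1C-20PEA, against 5341 and 5428 CPM in WT-10PEA and 5642 and 5297 CPM in WT-1C-20PEA. Every KO library had a higher sum than every WT library, but this rested on Pcna. Without Pcna the sums were 4598 and 4176 CPM in KO-10PEA and 4983 and 5115 CPM in KO-1C-20PEA, against 5016 and 5146 CPM in WT-10PEA and 5330.5 and 4526 CPM in WT-1C-20PEA, and the genotypes overlapped. Of 15 genes of histone supply and chromatin assembly 0 passed, and Ssrp1, of the histone chaperone FACT, averaged 86.2 ± 51.8 CPM in KO embryos and 14.1 ± 9.86 CPM in WT embryos with no overlap at either stage (adjusted p = 1).

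**Figure D3:**
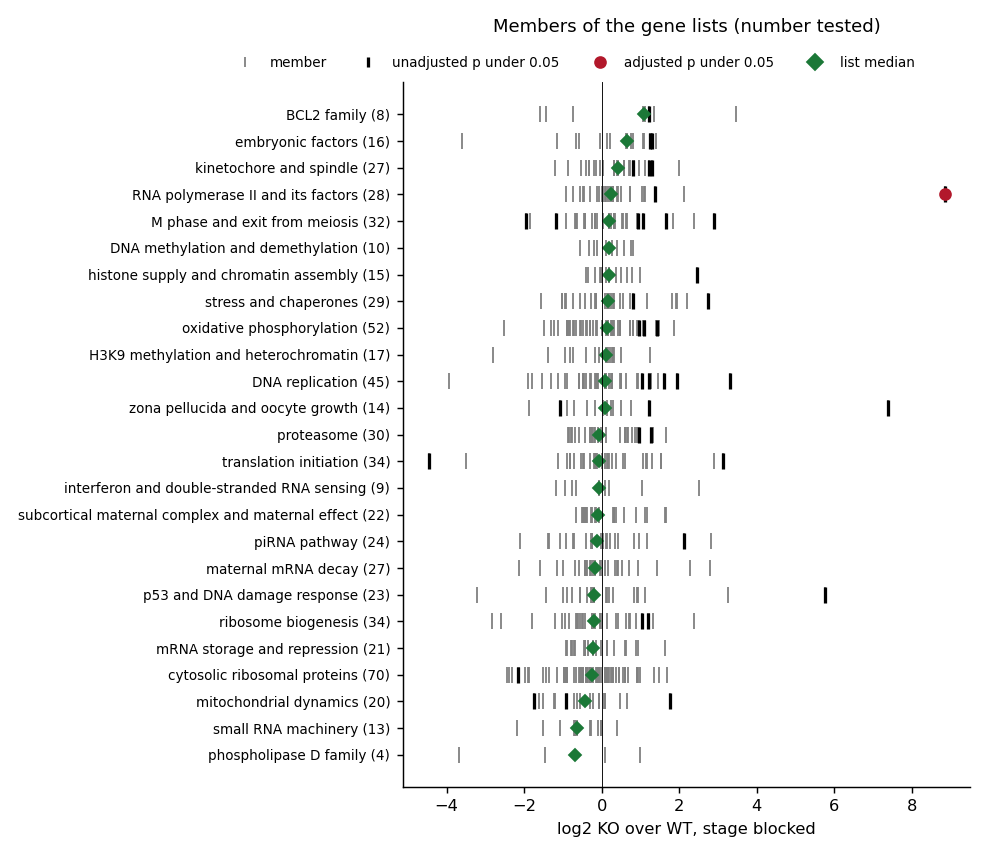
Log2 change of KO over WT, with stage as a block, for the tested members of the 25 gene lists, ordered by the list median (green diamonds); grey ticks are members, black ticks members with an unadjusted p under 0.05, and the red circle Gtf2b, the one member that passed. List medians run from −0.70 for the phospholipase D family to 1.09 for the BCL2 family.

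The piRNA pathway, which Pld6 serves, showed no gene that passed. Of its 24 tested genes 11 had a positive and 13 a negative log2 change, with a median of −0.13. Tdrkh, a Tudor partner of PIWI proteins on mitochondria, was the one gene with an unadjusted p under 0.05. It had 119 and 181 CPM in KO-10PEA and 165 and 396 CPM in KO-1C-20PEA, against 74.2 and 51.2 CPM in WT-10PEA and 40.4 and 29.5 CPM in WT-1C-20PEA (log2 2.13, SE 0.55, edgeR adjusted p = 0.737). Henmt1, which methylates the ends of piRNAs, averaged 221 ± 57.4 CPM in KO embryos and 360.2 ± 57 CPM in WT embryos (adjusted p = 1). The small RNA machinery makes and loads microRNAs and siRNAs. Of its 13 tested genes 12 had a negative change and 0 passed, while 47.2% of all genes tested had a positive change. The median of the list was −0.64, which turned to 0.11 under ERCC scaling, where the median of all genes was 0.41. Drosha, the nuclease that starts microRNA processing, averaged 62.5 ± 19.5 CPM in KO embryos and 102 ± 23.1 CPM in WT embryos. The summed level of that list, before TMM, was 1049.8 and 949 CPM in KO-10PEA and 1025 and 356 CPM in KO-1C-20PEA, against 1378 and 1212 CPM in WT-10PEA and 1612 and 1597 CPM in WT-1C-20PEA. KO-1C-20PEA replicate 2 lay far below the rest. Without it the median was −0.22.

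Among maternal factors no gene passed. Of 22 genes of the subcortical maternal complex and other maternal-effect genes 0 passed (median −0.11), of 21 genes of mRNA storage and repression 0 passed (median −0.22) and of 27 genes of maternal mRNA decay 0 passed (median −0.17). None of these 3 lists had a gene at an unadjusted p under 0.05. Cnot11, of the CCR4-NOT complex that shortens poly(A) tails, averaged 2.1 ± 1.39 CPM in KO embryos and 9.33 ± 4.27 CPM in WT embryos, and the exonuclease gene Xrn1 132 ± 20.9 CPM in KO embryos and 72.6 ± 35.5 CPM in WT embryos (adjusted p = 1 each). Of 14 genes of the zona pellucida and oocyte growth 0 passed, and Bmp15, an oocyte growth factor, had 1023 and 1208 CPM in KO-10PEA and 1048 and 341 CPM in KO-1C-20PEA, against 1657 and 1762 CPM in WT-10PEA and 2236 and 1810.2 CPM in WT-1C-20PEA (log2 −1.08, SE 0.44, edgeR adjusted p = 1). All 4 KO libraries lay below all 4 WT libraries. Sohlh1, an oocyte transcription factor, had no count in WT and 76 counts in KO, at least 30.3-fold higher against a floor of 3 counts over the WT group (adjusted p = 1). Its level was low, at 3.88 and 0 CPM in KO-10PEA and 1.59 and 4.08 CPM in KO-1C-20PEA, so KO-10PEA replicate 2 had no count either.

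The chromatin lists held no gene that passed. Of 10 genes of DNA methylation and demethylation 0 passed, with Dnmt1, the maintenance methyltransferase, at 5570.3 ± 1573 CPM in KO embryos and 3379.8 ± 1434 CPM in WT embryos and Dppa3, which protects the maternal genome from demethylation in mice, at 12396 ± 2993 CPM in KO embryos and 8514 ± 2406 CPM in WT embryos. Trim28 had the opposite order, at 62.6 ± 24.7 CPM in KO embryos and 108 ± 67.4 CPM in WT embryos. Of 17 genes of H3K9 methylation and heterochromatin 0 passed, and Suv39h2, a methyltransferase for this mark, averaged 161 ± 89.3 CPM in KO embryos and 448 ± 222 CPM in WT embryos. Setdb1 averaged 204 ± 118 CPM in KO embryos and 349 ± 110 CPM in WT embryos. Mphosph8 had the opposite order, at 160 ± 130 CPM in KO embryos and 92.9 ± 75.2 CPM in WT embryos. Of 16 embryonic factors 0 passed, 2 being higher at an unadjusted p, Zfp42 (367 ± 126 CPM in KO embryos and 152 ± 60.1 CPM in WT embryos) and Nfyb (217 ± 76 CPM in KO embryos and 95.4 ± 42.8 CPM in WT embryos).

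Stress and survival lists had no gene past the threshold either. Hsp90aa1, a cytosolic chaperone, had 1797 and 1284 CPM in KO-10PEA and 881 and 461 CPM in KO-1C-20PEA, against 391 and 477 CPM in WT-10PEA and 81.1 and 25.5 CPM in WT-1C-20PEA (log2 2.74, SE 0.58, edgeR adjusted p = 0.355). The KO libraries lay above the WT libraries at each stage. Dnaja1 averaged 1189 ± 116 CPM in KO embryos and 687 ± 183 CPM in WT embryos. Hsph1 had the opposite order, at 185 ± 85 CPM in KO embryos and 390 ± 214 CPM in WT embryos. Of 29 genes of the stress list 0 passed, of 23 p53 and DNA damage genes 0, and of 9 genes of interferon and double-stranded RNA sensing 0, the last with no gene at an unadjusted p under 0.05. Of 8 genes of the BCL2 family 0 passed, with Bcl2l10, an oocyte survival factor, at 7139 ± 2963 CPM in KO embryos and 3430.4 ± 2034 CPM in WT embryos. By stage, Bcl2l10 averaged 5487 CPM in KO-10PEA and 5116 CPM in WT-10PEA, and 8791 CPM in KO-1C-20PEA and 1745 CPM in WT-1C-20PEA. Bcl2l13 averaged 25.7 ± 5.48 CPM in KO embryos and 12.5 ± 3.25 CPM in WT embryos. Bcl2l1 had the opposite order, at 214 ± 79.9 CPM in KO embryos and 354 ± 88.8 CPM in WT embryos. In mitochondrial dynamics, near to the place where Pld6 acts, 0 of 20 passed. Oma1 had the lowest unadjusted p, Phb2 averaged 964 ± 1111 CPM in KO embryos and 235 ± 60.7 CPM in WT embryos with KO-1C-20PEA replicate 2 far above the rest, and Mfn2, a mitochondrial fusion protein, had 125 and 78.6 CPM in KO-10PEA and 163 and 92.6 CPM in KO-1C-20PEA, against 239.7 and 225 CPM in WT-10PEA and 218 and 179 CPM in WT-1C-20PEA (log2 −0.91, SE 0.41, edgeR adjusted p = 1). Of 52 genes of oxidative phosphorylation 0 passed and 3 were higher at an unadjusted p (Ndufb8, Sdhd and Ndufs4).

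Protein synthesis and breakdown were likewise without a gene that passed. Of 70 cytosolic ribosomal protein genes 0 passed (median −0.26), of 34 translation initiation genes 0 (median −0.06), of 34 ribosome biogenesis genes 0 (median −0.21) and of 30 proteasome genes 0 (median −0.06). Psma5, a subunit of the proteasome core, averaged 91 ± 20.4 CPM in KO embryos and 37.9 ± 6.28 CPM in WT embryos with no overlap at either stage (adjusted p = 1). Among 4 tested genes of the phospholipase D family 0 passed, and Pld1 averaged 904 ± 282 CPM in KO embryos and 940.2 ± 502 CPM in WT embryos.

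Markers of other cells were summed in each library, before TMM. Cumulus and granulosa markers summed to 18.4 to 41.6 CPM in KO and 9.25 to 37.1 CPM in WT, over 15 of 18 listed genes found in the files, 6 of them without a count in any library. Sperm and spermatid markers summed to 59.0 to 111 CPM in KO and 74.6 to 129 CPM in WT, over 12 of 17 genes, 6 without a count. Odf2 made up nearly all of it, after TMM at 79.5 ± 22 CPM in KO embryos and 86.6 ± 30.1 CPM in WT embryos. Leukocyte markers summed to 96.2 to 341 CPM in KO and 387 to 669 CPM in WT, over 10 of 12 genes, 5 without a count. Almost all of this was Csf1r, with 339.99 and 276 CPM in KO-10PEA and 302 and 123 CPM in KO-1C-20PEA, against 610.1 and 559 CPM in WT-10PEA and 469 and 312 CPM in WT-1C-20PEA (log2 −0.90, SE 0.41, edgeR adjusted p = 1). Red blood cell markers summed to at most 0.659 CPM in KO and 7.49 CPM in WT, over 3 of 8 genes, 2 without a count. Oviduct markers summed to 723 to 1608 CPM in KO and 718 to 1321 CPM in WT, over 9 of 10 genes, 1 without a count. Most of this was Cdh1 and Krt8. After TMM, Cdh1 averaged 714 ± 486 CPM in KO embryos and 764 ± 308 CPM in WT embryos. Krt8 averaged 334 ± 329 CPM in KO embryos and 184 ± 33.8 CPM in WT embryos. Ovgp1 averaged only 9.04 ± 6.76 CPM in KO embryos and 24.1 ± 11.3 CPM in WT embryos. None of these markers passed, and their part in the results was not tested.

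The KO effect was then set side by side at the 2 stages. No gene passed at either stage taken alone, nor for the difference between them. At 10PEA 0 of 13209 genes passed (0%), with 384 at an unadjusted p under 0.05 (2.91%), a smallest adjusted p of 0.493, and 29 genes by DESeq2 and 2 by limma voom. At 1C-20PEA 0 passed (0%), with 1707 at an unadjusted p (12.9%), a smallest adjusted p of 0.121, and 934 by DESeq2 and 11 by voom. The count at this stage changed when 1 library was left out, but such a fit has no replicate left in that group. The difference of the KO effect between the stages passed in 0 genes (0%), with 1489 at an unadjusted p (11.3%), 515 by DESeq2 and 0 by voom. For the 5 genes of the blocked test the difference between stages did not pass either, at edgeR adjusted p-values of 0.544 for Gtf2b, 0.604 for Tmem39a, 0.608 for Nacc1, 0.808 for Kif2a and 0.742 for LOC121139251.

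Over all genes tested the 2 stage effects had a Spearman correlation of −0.12 and shared their sign in 43.3% of genes. These are values across genes, which are not independent replicates. Changes past 1 on the log2 scale in the same direction at both stages were found in 578 genes higher in KO and 853 lower, while 2061 genes were past 1 in opposite directions.

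**Figure D4:**
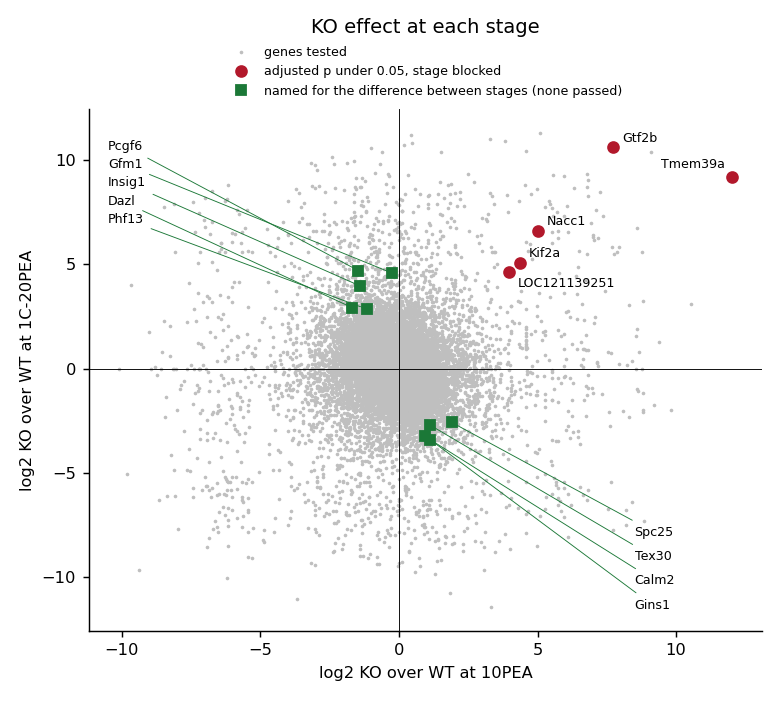
Log2 change of KO over WT at 10PEA (horizontal axis) and at 1C-20PEA (vertical axis) for the 13209 genes tested; red circles are the 5 genes that passed with stage as a block, all in the upper right, and green squares 9 genes named for a difference between stages, none of which passed. The grey cloud does not run along the diagonal, with a Spearman correlation of −0.12.

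The 9 genes given here for a difference between stages did not pass (adjusted p = 0.353 each). In 5 of them the KO effect was higher at 1C-20PEA, and in these WT levels were lower at 1C-20PEA than at 10PEA while KO levels were not. Pcgf6, a polycomb protein, had 21.8 and 20.4 CPM in KO-10PEA and 76.2 and 188 CPM in KO-1C-20PEA, against 43.5 and 73 CPM in WT-10PEA and 6.7 and 3.37 CPM in WT-1C-20PEA (difference 6.17, SE 1.03, edgeR adjusted p = 0.353). Dazl, an RNA-binding protein that promotes translation in germ cells, had 79 and 58.5 CPM in KO-10PEA and 77.1 and 220.02 CPM in KO-1C-20PEA, against 146 and 297 CPM in WT-10PEA and 24 and 15 CPM in WT-1C-20PEA (difference 4.62, SE 0.95, edgeR adjusted p = 0.353). Insig1, which restrains sterol synthesis, had a difference of 5.35, Gfm1, a mitochondrial elongation factor, of 4.84, and Phf13, which binds methylated histone H3, of 4.01.

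The other 4 had the opposite order, with lower KO levels at 1C-20PEA. Spc25, of the kinetochore complex that binds microtubules, had 103 and 129 CPM in KO-10PEA and 38.3 and 17.6 CPM in KO-1C-20PEA, against 40.6 and 21.3 CPM in WT-10PEA and 144 and 189 CPM in WT-1C-20PEA (difference −4.48, SE 0.88, edgeR adjusted p = 0.353). Gins1, of the GINS complex of the replicative helicase, had 65.5 and 83.2 CPM in KO-10PEA and 11.1 and 4.08 CPM in KO-1C-20PEA, against 40.4 and 27.9 CPM in WT-10PEA and 71.1 and 90.1 CPM in WT-1C-20PEA (difference −4.52, SE 0.97, edgeR adjusted p = 0.353). Calm2, one of the calmodulin genes, had a difference of −4.16, and Tex30 of −3.80.

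Proteasome genes were the list with the largest share of tested members at an unadjusted p for the difference among the 25 lists, 12 of 30, against 11.3% of all genes, and none passed. Their median log2 change was 0.78 at 10PEA and −0.78 at 1C-20PEA. Psmc5, an ATPase of the regulatory particle, had 96 and 134 CPM in KO-10PEA and 52.4 and 35.2 CPM in KO-1C-20PEA, against 58.7 and 50.7 CPM in WT-10PEA and 91.1 and 169.5 CPM in WT-1C-20PEA (difference −2.64, SE 0.80, edgeR adjusted p = 0.353). Psma6, of the core particle, had 199 and 356 CPM in KO-10PEA and 136 and 107 CPM in KO-1C-20PEA, against 143 and 138 CPM in WT-10PEA and 211 and 393 CPM in WT-1C-20PEA (difference −2.29, SE 0.74, edgeR adjusted p = 0.353). Not all subunits did the same, and Psmd2 had 54.7 and 49.8 CPM in KO-10PEA and 83 and 271 CPM in KO-1C-20PEA, against 59 and 94 CPM in WT-10PEA and 28.7 and 10.2 CPM in WT-1C-20PEA (difference 3.73, SE 1.05, edgeR adjusted p = 0.353). The summed level of the list, before TMM, was 3896 and 4658 CPM in KO-10PEA and 2899 and 2119.9 CPM in KO-1C-20PEA, against 3615 and 2810.3 CPM in WT-10PEA and 4674 and 6079.8 CPM in WT-1C-20PEA. Under ERCC scaling the count was 0 of 30, and it was also lower without KO-10PEA replicate 2. The shares of all genes in those fits are not given here, so whether the fall is particular to this list was not tested.

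Cytosolic ribosomal protein genes had the same order of medians, 0.57 at 10PEA and −1.04 at 1C-20PEA, with 10 of 70 at an unadjusted p for the difference, near the share in all genes. Ribosomal protein genes have many close copies in mammals, so their counts are uncertain. Rpl7a, of the large subunit, had 65 and 218 CPM in KO-10PEA and 32.1 and 16.3 CPM in KO-1C-20PEA, against 82.8 and 59 CPM in WT-10PEA and 177 and 465 CPM in WT-1C-20PEA (difference −4.72, SE 1.05, edgeR adjusted p = 0.353). WT-1C-20PEA replicate 2 was the highest library, and without it the median at 1C-20PEA was 0.02. DNA replication genes had 14 of 45 at an unadjusted p for the difference, against 11.3% of all genes tested, and none passed. Among them were Gins1 with a negative and Mcm4 with a positive difference (difference 3.75, SE 0.90, edgeR adjusted p = 0.353). Mcm4, of the replicative helicase, had 140.3 and 117 CPM in KO-10PEA and 196 and 329 CPM in KO-1C-20PEA, against 189 and 313 CPM in WT-10PEA and 57 and 18.7 CPM in WT-1C-20PEA.

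The genes that passed in one-cell embryos were then followed in oocytes and later embryos of the same series, with CPM scaled over all 26 oocyte and embryo libraries and therefore not equal to the values above. Oocytes are labelled GV, with the germinal vesicle, and MII, arrested in the second meiotic division, and later embryos 33PEA and 54PEA. LOC121139251 overlapped between the genotypes in GV oocytes, at 1426 and 1838 CPM in KO and 1356 and 1822 CPM in WT. In MII oocytes it was at 3114 and 4444 CPM in KO and 873 and 1139.7 CPM in WT, and in 33PEA embryos at 5435 and 3936 CPM in KO and 218 and 9.68 CPM in WT. Each WT library from 10PEA on lay below the WT MII libraries, while the KO libraries stayed above the KO GV libraries until 54PEA, where KO had 199 and 81.6 CPM and WT 1.32 and 0.693 CPM. The mean at 1C-20PEA was 168% of the GV mean in KO and 8.59% in WT. Such percentages, here and below, compare CPM, which is scaled to library totals, and not amounts of RNA per cell.

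Gtf2b had 216 and 245 CPM in KO and 132 and 128 CPM in WT at GV. At MII the values were 152 and 487 CPM in KO and 21.2 and 10.4 CPM in WT. The WT transcript was near 0 at 10PEA and 1C-20PEA and was back at 33PEA, with 92.6 and 123 CPM in KO and 108 and 101 CPM in WT, where the genotypes overlapped. Its mean at 1C-20PEA was 80.2% of the GV mean in KO and 0.0962% in WT.

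Tmem39a, Kif2a and Nacc1, like Gtf2b, were already apart in GV oocytes, with KO above WT, as were 13% of all 13209 genes tested. Tmem39a had 55.8 and 75.1 CPM in KO and 3.37 and 3.55 CPM in WT at GV. Kif2a had 826 and 801 CPM in KO and 136 and 107 CPM in WT at GV, and Nacc1 52 and 31.1 CPM in KO and 18.3 and 5.44 CPM in WT. All 3 were apart in the same direction at MII and 33PEA, against 6.98% of all genes tested at MII and 24.9% at 33PEA. At 54PEA the order was reversed in Gtf2b, Kif2a and Nacc1, with both KO libraries below both WT libraries. The same order was found at 54PEA in 38.6% of all genes tested, so it is not particular to these genes. Gtf2b had 173 and 0 CPM in KO and 197 and 241 CPM in WT at that stage, Kif2a 63.1 and 0.718 CPM in KO and 97.6 and 149.6 CPM in WT, and Nacc1 0 and 0 CPM in KO and 10 and 3.93 CPM in WT. Tmem39a overlapped there, with 109.9 and 0 CPM in KO and 16.4 and 4.85 CPM in WT.

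**Figure D5:**
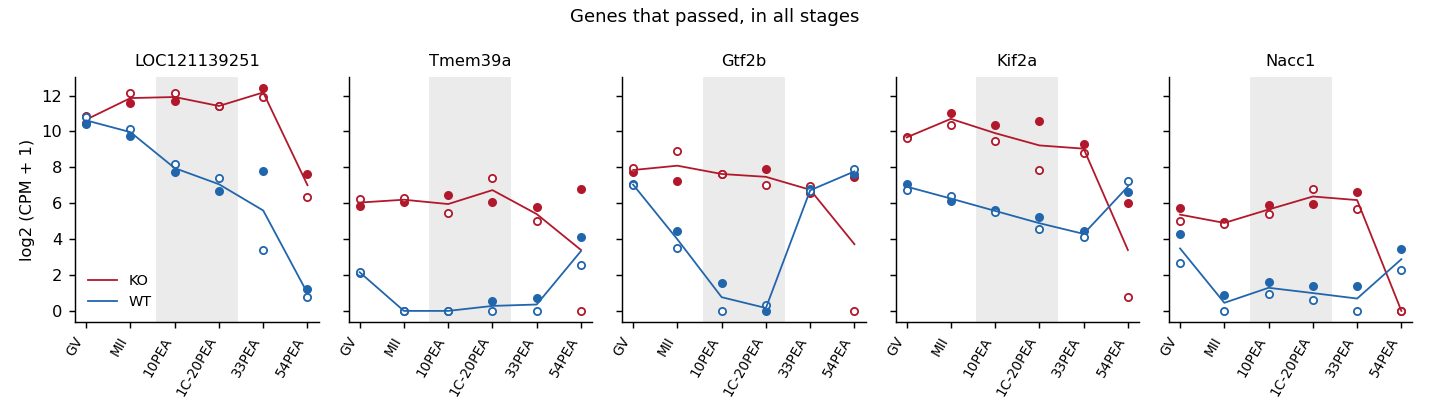
Level of the 5 genes that passed in each library of 6 stages, as log2 of CPM + 1, scaled over 26 libraries; KO in red and WT in blue, filled circles replicate 1, open circles replicate 2, lines the mean of the 2 log values, and the grey band the one-cell stages compared here. LOC121139251 overlaps between the genotypes at GV and apart from MII on, and WT Gtf2b is near 0 in the grey band and back at 33PEA.

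The 12 genes named in the upward direction were followed in the same way, with the one-cell levels used by the rule. In 11 of the 12 the KO mean at 1C-20PEA was above 50% of the KO mean at GV, against 63.4% of the 13027 genes tested that were counted at GV in both genotypes. In 11 of the 12 the WT mean was below 50% of the WT mean at GV, against 29.1% of those genes. Both counts use the 1C-20PEA levels by which the 12 genes were chosen, so they are partly built in and are no finding. KO libraries lay above WT libraries for 10 of the 12 in GV oocytes, a stage the rule did not use, against 13% of all 13209 genes, and for 11 of 12 in MII oocytes, against 6.98%. At 33PEA 8 of 12 lay above, against 24.9%, and 3 below, against 19.3%. At 54PEA 0 of 12 lay above, against 4.44%, and 8 below, against 38.6%.

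The 12 genes named in the downward direction lay below WT in 7 of 12 at GV, against 17.4% of all genes, and in 6 of 12 at MII, against 27.3%. At MII 1 lay above, against 6.98%. At 33PEA 1 of 12 lay below, against 19.3% of all genes, and 7 above, against 24.9%. At 54PEA 7 lay below, against 38.6%, and 1 above, against 4.44%. These stages come from the same series and were known when the comparison was chosen, so the counts are a description.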

How the data were processed

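The 8 libraries were taken by label. Per the labels' protocols, single embryos were lysed with ERCC spike-in RNA and sequenced after tagmentation. The deposited values are the authors' whole-number counts of reads for each gene, with 32303 gene rows and 92 ERCC rows per library. Per the submitters' processing notes, Trim Galore, TopHat, STAR 2.7.1a and featureCounts were used, with no role stated for each. The genome build and the use of strand in counting are not given in the sources used here. In 1 file 8 lines that name no gene were dropped.

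Counts were fitted with edgeR 4.0.16 in R 4.3.3 by the quasi-likelihood F test, with TMM scaling, filterByExpr on the 4 groups, stage as a block and Benjamini-Hochberg adjustment at 0.05. A fit of 4 group means gave the effect at each stage and their difference. The common dispersion was 0.999 in the blocked fit, with 5 residual degrees of freedom. Each SE was obtained by dividing the log2 change by the square root of its F. Alternatives used limma 3.58.1 voom and DESeq2 1.42.0, and the scripts were tested on simulated data. Counting intervals are exact at 95%.

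Named genes had a symbol, at least 5 CPM in the higher genotype and libraries apart in the same direction at both stages. Those that passed came first by size and then, up to 12 each way, those with the smallest p. For the difference, libraries had to be apart at 1 stage or both, with 5 genes each way, 1 of which is not reported here. Pld6, Piwil1, Piwil2, Piwil3, Ddx4 and the 3 members of each list with the smallest p were named whatever their values. Not all of these list members are described here, so those described do not show the direction of a list. Others named were chosen after their values were seen. The comparison and the 25 gene lists and 5 marker lists were chosen with earlier results of these data known.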

Additional observations from a re-analysis of the deposited data

How the results depend on the processing

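The number of genes that passed with stage as a block was 5 under RLE scaling, robust spread, a filter of 10 CPM in 4 libraries and limma voom, which shared 4 of them, and it was 0 with ERCC scaling, 8 in a fit of 26 libraries (4 shared), 43 with no filter (36 higher, 7 lower) and 77 by DESeq2 (60 higher, 17 lower). Leaving out 1 library, which takes the lone library left in that group to be as variable as the rest, gave 0 to 3. At 10PEA the count was 10 with no filter, 29 by DESeq2 and 2 by voom, and 0 when any library was left out. At 1C-20PEA it was 536 with no filter, 934 by DESeq2 and 11 by voom, and 0 to 246 with 1 library left out. For the difference between stages it was 307 with no filter and 515 by DESeq2, and 0 with 1 library left out. The cause of these differences was not tested.

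Replicate numbers showed little pairing of the samples. Deviations of libraries with the same number correlated at 0.049 and 0.086 within stages and at −0.053 to 0.188 between stages. Replicate 2 nevertheless had the lower gene counts per ERCC count and fewer genes counted in all 4 groups. With the replicate number as a block the count was 0 (smallest adjusted p = 0.0669), 0 at 10PEA, 9 at 1C-20PEA and 0 for the difference.

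The named genes whose sign changed had not passed. Under ERCC scaling the log2 change was 0.27 for Ddx4, 0.17 for Spc25, 0.093 for Trim28, 0.052 for Setdb1, 0.24 for Mavs, 0.42 for Odf2, 0.40 for Akap4 and 0.45 for Tssk6. With voom it was 0.041 for Ddx4, 0.38 for Ptgs2 and −0.76 for Amhr2, with the replicate block 0.035 for Ddx4 and 0.33 for Ptgs2, and in the fit of 26 libraries −0.00989 for Pld1. Over the fits without 1 library the range was −0.32 to 0.77 for Amhr2, −0.41 to 1.58 for Dazl, −0.35 to 0.20 for Ddx4, −0.057 to 0.90 for Krt8, −0.35 to 0.18 for Odf2, −0.00966 to 3.19 for Pcgf6, −0.017 to 1.63 for Phf13, −0.88 to 1.12 for Piwil3, −0.32 to 0.27 for Pld1, −2.58 to 1.22 for Ptgs2, −1.32 to 0.60 for Spc25 and −1.97 to 1.36 for Tssk6. Without 1 library the log2 difference in gene counts per ERCC count ranged from −0.76 to 1.19, and the difference in genes counted per library from −2213.5 to 410. With 2 libraries per group and a common dispersion of 0.999, genes that did not pass cannot be taken as alike in KO and WT.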
